A study of Homo sapiens with 6 samples.

Results

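The eukaryotic translation initiation factor genes were examined in HCT116, an established line from a human colorectal carcinoma, by RNA sequencing after silencing of RRN3. The groups were cells transfected with an siRNA against RRN3 (n = 3 libraries) and cells transfected with a control siRNA (n = 3 libraries). Both were grown in McCoy's medium with serum, and the design text calls the replicates biological. The dose, the time after transfection, the siRNA sequences and whether 1 or several siRNAs were used are not stated in the labels, so the data describe 1 line at 1 unstated time. RRN3, also called TIF-IA, brings RNA polymerase I to the ribosomal RNA genes. Members were taken from the gene symbols alone. Of the 25662 rows of the table, 99 have a symbol that starts with EIF1, EIF2, EIF3, EIF4 or EIF5. Of these, 5 with a hyphen (antisense and divergent transcripts) and 42 that end in P and digits (the form of pseudogene names) were left out, and the 4 EIF2AK kinases were set apart, which left 48 initiation factor genes. The ending also removed EIF4EBP1, EIF4EBP2 and EIF4EBP3, which encode proteins, and these are described with the kinases.

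Values are TPM, a relative abundance that corrects for transcript length and sums to the same total in each library. Levels can be compared between genes only roughly, since effects of GC content remain, and cannot be turned into RNA per cell. In bulk samples fewer cells of a kind and less RNA per cell cannot be told apart. The 6 libraries had summed TPM of 991305 to 992042, and their sequencing depth is unknown. The silenced gene, RRN3, had 2.70, 1.22 and 0.925 TPM in RRN3 siRNA libraries, against 20.9, 14.7 and 14.1 TPM in control siRNA libraries. Of 10 epithelial markers 7 averaged at least 1 TPM, while the colonic markers KRT20, VIL1 and LGALS4 stayed below 1 TPM in every library. The epithelial markers summed to 9928 to 10834 TPM in RRN3 siRNA libraries and 4563 to 5397 TPM in control siRNA libraries. Most of each sum was the keratins KRT8 and KRT18, and the part of the difference between the groups in the results was not tested. The summed level of 6 fibroblast markers was 6.79 to 7.62 TPM in RRN3 siRNA libraries and 8.34 to 10.4 TPM in control siRNA libraries, nearly all of it COL1A1. Immune and endothelial markers summed to less than 1 TPM in every library. The 2 libraries numbered 1 went the same way with GC content. Across genes, the correlation of GC content with the deviation from the group mean was -0.508 in RRN3 siRNA replicate 1 and -0.453 in control siRNA replicate 1, against 0.0730 to 0.460 in the other 4 libraries. RRN3 siRNA replicate 3 (0.460) and control siRNA replicate 2 (0.411) lay nearly as far to the other side. Deviations within a group sum to 0, so these values alone do not single out the libraries numbered 1.

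Translation initiation places the ribosome on the start codon of an mRNA. The factor eIF2 carries the initiator tRNA to the small ribosomal subunit and is recharged with GTP by eIF2B. The large complex eIF3 holds the subunit open for the mRNA, and eIF4F, made of the cap-binding eIF4E, the scaffold eIF4G and the helicase eIF4A, loads it. The factors eIF1, eIF1A and eIF5 govern the choice of start codon, and eIF5B joins the large subunit. Initiation is held back by kinases that phosphorylate eIF2 and by proteins that bind eIF4E.

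In cells given RRN3 siRNA, 8 initiation factor genes passed the test. Most of those tested did not, which does not show that they stayed at their control level. EIF2B2 and EIF3B rose, and EIF1, EIF1B, EIF3F, EIF3K, EIF4A3 and EIF4E2 fell. The largest fall was that of EIF4A3, to 60.6% of its control level, and the largest rise that of EIF2B2, to 147% of control. Of the 48 members, 45 averaged at least 1 TPM and were tested together with all other genes (limma on log2(TPM + 1), Benjamini-Hochberg adjustment over 12157 genes, threshold 0.05). Of these 45, 2 rose, 6 fell and 37 did not pass. Among all 12157 genes tested, 11.2% rose, 19.0% fell and 30.3% changed in either direction. The share of initiation factor genes that changed, 17.8%, was below the last of these, a difference that was not tested. The median log2 change over the 45 genes was 0.00, beside -0.05 over all genes tested. The values did not overlap between the groups for 13 members, 6 with RRN3 siRNA above and 7 below, where 17.9% and 26.9% of all tested genes did so. Over all genes 1367 rose and 2312 fell as reported, but the split was nearer to even under other scalings. With median-of-ratios factors 2017 rose and 2115 fell, with quantiles made equal 2205 rose and 2284 fell, and with GC content corrected 2756 rose and 2700 fell. Each of these steps aligns the libraries with one another, which by itself moves the split toward even. Among members, the number that fell was 3 after median-of-ratios scaling and 10 without RRN3 siRNA replicate 1. The members not tested were EIF2S3B, EIF4E1B and the Y-linked EIF1AY. EIF2S3B had 0.0890 to 0.304 TPM in RRN3 siRNA libraries and 0.0474 to 0.248 TPM in control siRNA libraries. EIF4E1B had 0.0628 to 0.210 TPM in RRN3 siRNA libraries and 0.0613 to 0.225 TPM in control siRNA libraries.

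**Figure D1:**
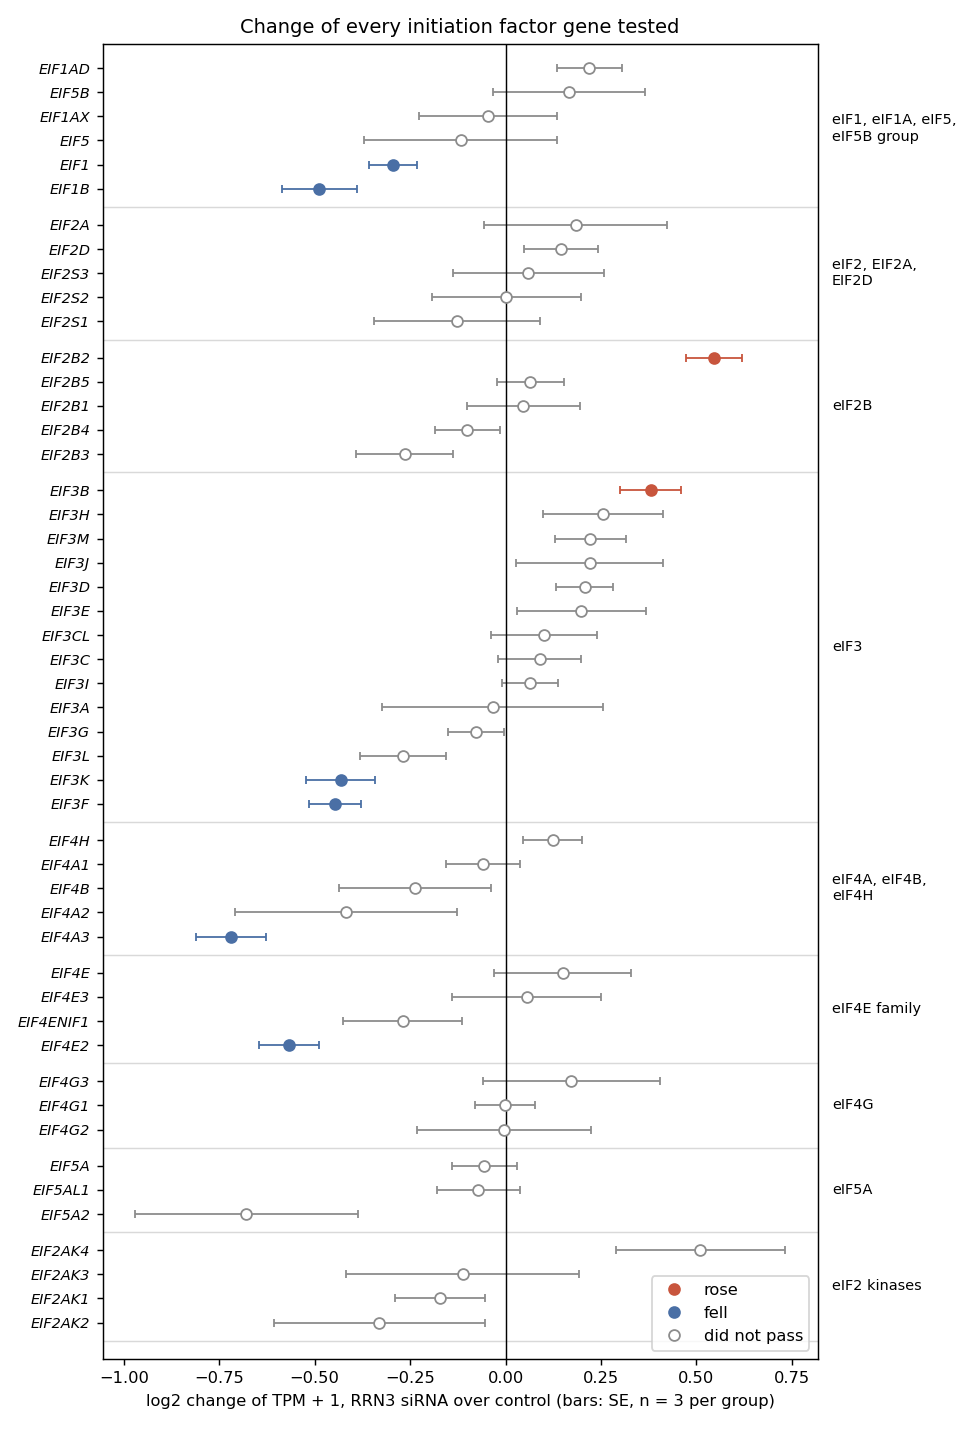
The log2 change of TPM + 1 (RRN3 siRNA over control siRNA, n = 3 per group) is plotted for the 45 initiation factor genes tested and the 4 eIF2 kinases, grouped by role, with bars for the standard error. Filled points are the 2 genes that rose and the 6 that fell, and open points did not pass the test.

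EIF4A3, an RNA helicase of the eIF4A family that forms the core of the exon junction complex on spliced mRNA, fell most. It had 213, 199.7 and 178 TPM in RRN3 siRNA libraries, against 329, 346 and 299 TPM in control siRNA libraries. All RRN3 siRNA libraries lay below all control siRNA libraries, with a log2 change of -0.72 (SE 0.09, limma adjusted p = 0.000968). Its locus is chromosome 17, 80135214 to 80147183, minus strand (GRCh38, GENCODE 29). EIF4E2, a cap-binding relative of eIF4E that does not bind eIF4G and is known for repressing translation, had 78.2, 79.9 and 72.7 TPM in RRN3 siRNA libraries, against 119, 108 and 116 TPM in control siRNA libraries. The groups were apart by more than the range within either, and the log2 change was -0.57 (SE 0.08, limma adjusted p = 0.00143). EIF4E2 lies on the plus strand of chromosome 2 at 232550052 to 232583644.

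Both eIF1 genes fell. EIF1B, on the plus strand of chromosome 3 at 40309684 to 40312424, had 57.1, 52.8 and 50.4 TPM in RRN3 siRNA libraries, against 82.8, 75.3 and 68.3 TPM in control siRNA libraries, a log2 change of -0.49 (SE 0.10, limma adjusted p = 0.00753). EIF1, the main eIF1 gene, on the plus strand of chromosome 17 at 41688885 to 41692668, was among the most abundant members. It had 786, 807 and 778 TPM in RRN3 siRNA libraries, against 993, 975 and 942 TPM in control siRNA libraries, a log2 change of -0.29 (SE 0.06, limma adjusted p = 0.00960). The groups did not overlap for either gene, with EIF1B at 70.8% and EIF1 at 81.5% of the control level. The EIF1 call ended after median-of-ratios scaling (adjusted p = 0.248), quantile normalization (adjusted p = 0.109), correction for GC content (adjusted p = 0.0811), in eBayes with no intensity trend (adjusted p = 0.0505) and with RRN3 siRNA replicate 2 left out (adjusted p = 0.0522), while the EIF1B call held under each of these.

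Of the eIF3 subunits, EIF3F and EIF3K fell, both part of the core of the complex. EIF3F, on the plus strand of chromosome 11 at 7970251 to 8001862, had 214, 211 and 218 TPM in RRN3 siRNA libraries, against 275, 303 and 302 TPM in control siRNA libraries. Its log2 change was -0.45 (SE 0.07, limma adjusted p = 0.00234). EIF3K, on the plus strand of chromosome 19 at 38619082 to 38636955, had 227, 244 and 276 TPM in RRN3 siRNA libraries, against 316, 336 and 352 TPM in control siRNA libraries. Its log2 change was -0.43 (SE 0.09, limma adjusted p = 0.00879). Neither pair of groups overlapped, and EIF3F varied less within the RRN3 siRNA group (SD 3.27 TPM) than EIF3K did (SD 24.9 TPM). Both calls ended after median-of-ratios scaling, with a log2 change of -0.37 for EIF3F (adjusted p = 0.0597) and -0.36 for EIF3K (adjusted p = 0.121). That of EIF3F also ended after correction for GC content, with a log2 change of -0.43 (adjusted p = 0.102). The correction used the GC content of the longest coding transcript, which has 7540 bases for EIF3F, and other transcripts were not tried.

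The 2 genes that rose encode a subunit of eIF2B and one of eIF3. EIF2B2, the beta subunit of the exchange factor, on the plus strand of chromosome 14 at 75002911 to 75012366, had 87.2, 87.3 and 89.0 TPM in RRN3 siRNA libraries, against 59.6, 62.3 and 57.7 TPM in control siRNA libraries. The replicates differed little within either group, and the log2 change was 0.55 (SE 0.07, limma adjusted p = 0.00120). EIF3B, a scaffold subunit of eIF3 with an RNA recognition motif, on the plus strand of chromosome 7 at 2354086 to 2380745, had 311, 289.6 and 291 TPM in RRN3 siRNA libraries, against 239, 238 and 208 TPM in control siRNA libraries. Its log2 change was 0.38 (SE 0.08, limma adjusted p = 0.00913). EIF2B2, EIF3B, EIF1B, EIF4A3 and EIF4E2 passed under each of the 19 alternative ways of processing the data or choosing libraries that were run, with log2 changes of 0.52 to 0.62, 0.31 to 0.50, -0.56 to -0.41, -0.78 to -0.64 and -0.61 to -0.49.

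**Figure D2:**
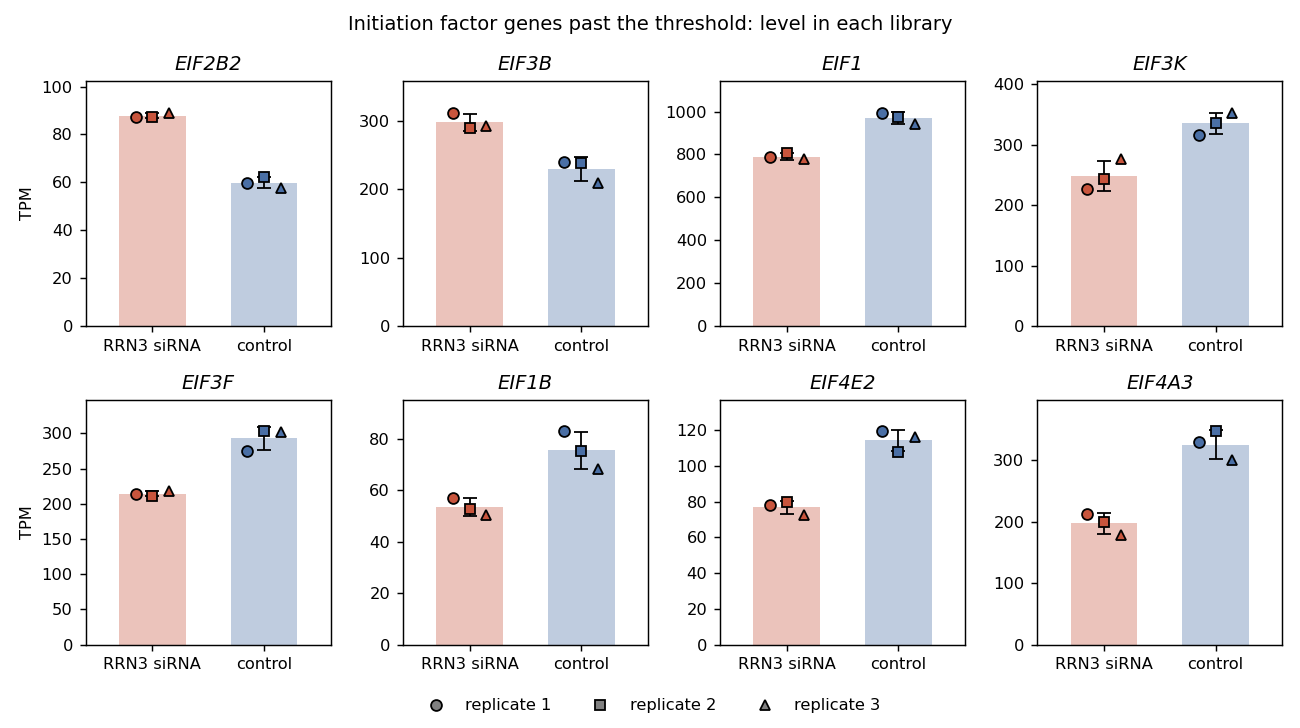
TPM in each library is plotted for the 8 initiation factor genes past the threshold, with bars for the group mean and error bars for the SD (n = 3), RRN3 siRNA at the left of control siRNA in each panel. The groups do not overlap in any panel, and EIF4A3 shows the largest difference (60.6% of control).

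Promoters were searched for one short element, the E-box CACGTG, which reads the same on both strands, in the 250 bases before the transcription start in RefSeq windows (GRCh38.p14). It was present in 4 of the 6 members that fell, in 0 of the 2 that rose and in 6 of the 30 with a window that did not pass. Windows were matched for 41 of the 48 members, of which 10 (24.4%) held it, beside 11.5% of 9551 tested genes and 7.73% of all 27305 genes with a window. Over all tested genes the E-box was about as common in those that fell (12.0% of 1851) as in those that rose (11.05% of 1068). The match describes the letters of the window, not binding. The 4 sites are shown with 25 bases on each side, 5′ to 3′ on the strand of the gene, with the E-box in capitals.
EIF4A3, chr17:80147219-80147274, minus strand, E-box starting 121 bases before the start: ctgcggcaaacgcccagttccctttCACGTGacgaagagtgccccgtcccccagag
EIF1B, chr3:40309628-40309683, plus strand, 54 bases before the start: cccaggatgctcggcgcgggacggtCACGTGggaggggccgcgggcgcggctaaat
EIF3F, chr11:7987244-7987299, plus strand, 68 bases before the start: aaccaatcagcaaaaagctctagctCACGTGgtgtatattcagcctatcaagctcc
EIF3K, chr19:38619060-38619115, plus strand, 103 bases before the start: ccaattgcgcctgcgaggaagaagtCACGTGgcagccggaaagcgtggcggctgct
In all 4 windows the E-box occurred once. Distances are from the RefSeq start, which for all 4 genes lies inside the GENCODE locus given above, and the E-boxes of EIF3F and EIF3K also lie inside that locus. The other members with an E-box, none of which passed, were EIF2B3, EIF4B, EIF4E, EIF4G1, EIF4H and EIF5A2, with log2 changes from -0.68 (EIF5A2) to 0.15 (EIF4E).

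Within eIF2B, whose 5 subunits act as one complex, the change of EIF2B2 was not shared. EIF2B1, the alpha subunit, averaged 22.5 ± 3.99 TPM in RRN3 siRNA libraries and 21.7 ± 2.44 TPM in control siRNA libraries (SD, n = 3 each), with adjusted p = 0.849 in limma. EIF2B5, the catalytic epsilon subunit, averaged 50.5 ± 1.22 and 48.3 ± 3.57 TPM in RRN3 siRNA and control siRNA libraries (limma adjusted p = 0.626). EIF2B4, the delta subunit, averaged 47.3 ± 1.87 TPM in RRN3 siRNA libraries and 50.8 ± 3.11 TPM in control siRNA libraries (limma adjusted p = 0.425). EIF2B3, the gamma subunit, lay lower in every RRN3 siRNA library, at 14.9, 14.6 and 14.4 TPM against 20.9, 16.5 and 16.2 TPM in control siRNA libraries, but did not pass (log2 change -0.26, limma adjusted p = 0.158). It passed after correction for GC content (adjusted p = 0.0477). The summed level of the 5 eIF2B genes was 219 to 226 TPM in RRN3 siRNA libraries and 185 to 206 TPM in control siRNA libraries, without overlap. EIF2B2 carried this difference, since its own mean differed by more TPM than the sum did.

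The subunits of eIF2 itself did not pass. EIF2S1, the alpha subunit that the stress kinases phosphorylate, had 246, 167 and 140 TPM in RRN3 siRNA libraries, against 230.1, 156 and 208 TPM in control siRNA libraries (log2 change -0.13, SE 0.22, limma adjusted p = 0.713). EIF2S2, the beta subunit, and EIF2S3, the gamma subunit, had log2 changes of 0.00 (SE 0.19) and 0.06 (SE 0.20). Standard errors of this size leave room for changes larger than the standard error itself in either direction. EIF2A and EIF2D, separate proteins that can bring the initiator tRNA without eIF2, had log2 changes of 0.18 (SE 0.24, limma adjusted p = 0.617) and 0.14 (SE 0.10, limma adjusted p = 0.307). EIF2D was nevertheless higher in every RRN3 siRNA library, at 35.5, 32.1 and 31.2 TPM, against 30.3, 31.0 and 27.8 TPM in control siRNA libraries.

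The eIF3 genes spread from a log2 change of -0.45 (EIF3F) to 0.38 (EIF3B), and their sum differed little. It averaged 3220.4 ± 138 TPM in RRN3 siRNA libraries and 3191 ± 78.1 TPM in control siRNA libraries (SD, n = 3 each). Of the 14 genes 1 rose, 2 fell and 11 did not pass. The share that changed was 21.4%, where 11.2% of all genes tested rose, 19.0% fell and 30.3% changed. Of the 11, EIF3A, EIF3C, EIF3CL, EIF3D, EIF3E, EIF3H, EIF3I, EIF3J and EIF3M had higher means in RRN3 siRNA libraries. EIF3G and EIF3L had lower means there. EIF3D, a subunit that can itself bind the cap of some mRNAs, came nearest to the threshold. It had 403, 395 and 372 TPM in RRN3 siRNA libraries, against 341, 357 and 315 TPM in control siRNA libraries (log2 change 0.21, SE 0.07, limma adjusted p = 0.0714). The groups did not overlap, and EIF3D passed after quantile normalization (adjusted p = 0.0199), rescaling that leaves out ribosomal protein and mitochondrial genes (adjusted p = 0.0354) and correction for GC content (adjusted p = 0.0234). EIF3M, a core subunit, was also higher in every RRN3 siRNA library, at 365, 322 and 309 TPM against 290, 258 and 305 TPM in control siRNA libraries (limma adjusted p = 0.114), and passed after quantile normalization (adjusted p = 0.0250). EIF3L, which pairs with EIF3K in the complex, had 368, 332 and 304 TPM in RRN3 siRNA libraries, against 441, 425 and 347 TPM in control siRNA libraries (log2 change -0.27, SE 0.11, limma adjusted p = 0.113). EIF3L passed without RRN3 siRNA replicate 1 (adjusted p = 0.0430), with control siRNA replicate 3 left out (adjusted p = 0.0401), after leaving out both libraries numbered 1 (adjusted p = 0.0490) and after correction for GC content (adjusted p = 0.0209). EIF3H passed upward with both libraries numbered 1 left out (adjusted p = 0.0338) and after correction for GC content (adjusted p = 0.0291), and EIF3E without both libraries numbered 1 (adjusted p = 0.0412). With 1 library left out the log2 change ranged from -0.37 to -0.20 for EIF3L, from 0.12 to 0.41 for EIF3H and from -0.01 to 0.31 for EIF3E.

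Levels within eIF3 were unequal in both groups. EIF3A, the largest subunit, and EIF3J, a loosely held one, averaged 28.2 ± 13.1 and 29.7 ± 7.70 TPM in RRN3 siRNA libraries and 27.5 ± 5.97 and 25.1 ± 4.36 TPM in control siRNA libraries. Among the other single-copy subunits the lowest mean was that of EIF3E, at 169 ± 13.0 TPM in RRN3 siRNA and 150 ± 34.9 TPM in control siRNA libraries. EIF3D had the highest mean in RRN3 siRNA libraries (390 ± 16.2 TPM) and EIF3L that in control siRNA libraries (404 ± 50.2 TPM). EIF3C and EIF3CL are near-identical copies on chromosome 16 between which reads can be split, so their values are uncertain. EIF3C averaged 231 ± 22.9 TPM and EIF3CL 31.7 ± 1.09 TPM in RRN3 siRNA libraries, against 218 ± 25.9 and 29.8 ± 5.35 TPM in control siRNA libraries.

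The genes of eIF4F did not pass. EIF4A1, the main helicase, had 1138, 999.8 and 932 TPM in RRN3 siRNA libraries, against 1070.3, 1144 and 978 TPM in control siRNA libraries (log2 change -0.06, SE 0.10, limma adjusted p = 0.700). EIF4G1, the main scaffold, averaged 237 ± 5.00 TPM in RRN3 siRNA libraries and 238 ± 19.6 TPM in control siRNA libraries (limma adjusted p = 0.998). EIF4E, the cap-binding subunit, averaged 30.9 ± 8.18 TPM in RRN3 siRNA libraries and 27.1 ± 1.76 TPM in control siRNA libraries (limma adjusted p = 0.583), so its transcript was the least abundant of the 3 in both groups. EIF4G2, also called DAP5, a relative of eIF4G that lacks the eIF4E site, ranged from 168 to 323 TPM in RRN3 siRNA libraries and from 201 to 254 TPM in control siRNA libraries (limma adjusted p = 0.992). EIF4G3 averaged 9.42 ± 3.17 and 8.07 ± 1.59 TPM in RRN3 siRNA and control siRNA libraries (limma adjusted p = 0.627). The helicase cofactor EIF4H averaged 429.9 ± 18.7 TPM in RRN3 siRNA libraries and 395 ± 27.7 TPM in control siRNA libraries (limma adjusted p = 0.274). The cofactor EIF4B had 333, 242 and 201 TPM in RRN3 siRNA libraries, against 373, 274 and 261 TPM in control siRNA libraries (log2 change -0.24, SE 0.20, limma adjusted p = 0.421). EIF4A2, the second eIF4A, had 242, 142 and 111 TPM in RRN3 siRNA libraries, against 285, 184 and 175 TPM in control siRNA libraries (log2 change -0.42, SE 0.29, limma adjusted p = 0.325). In both genes replicate 1 was the highest library of its group, and both passed downward without RRN3 siRNA replicate 1 (adjusted p = 0.0446 for EIF4B and 0.0127 for EIF4A2) and without both libraries numbered 1 (EIF4B adjusted p = 0.0464, EIF4A2 adjusted p = 0.00123). EIF4A2 also passed after correction for GC content (adjusted p = 0.0480). Without RRN3 siRNA replicate 3 or control siRNA replicate 1 the log2 change was nearer to 0, at -0.17 (limma adjusted p = 0.665) and -0.20 (limma adjusted p = 0.664) for EIF4A2 and -0.07 (limma adjusted p = 0.808) and -0.08 (limma adjusted p = 0.812) for EIF4B.

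Of the remaining factors, EIF5, the GTPase activator of eIF2, averaged 58.7 ± 23.3 TPM in RRN3 siRNA libraries and 61.4 ± 10.96 TPM in control siRNA libraries (limma adjusted p = 0.774). EIF5B averaged 7.15 ± 2.14 and 6.13 ± 0.645 TPM (limma adjusted p = 0.586) and EIF1AX, an eIF1A gene on the X chromosome, 28.4 ± 7.64 and 28.7 ± 2.57 TPM (limma adjusted p = 0.883) in RRN3 siRNA and control siRNA libraries. EIF1AD, named for an eIF1A-like domain, was higher in every RRN3 siRNA library, at 47.2, 45.6 and 43.8 TPM against 40.5, 36.5 and 39.9 TPM in control siRNA libraries, with limma adjusted p = 0.0913. It passed after rescaling that leaves out ribosomal protein and mitochondrial genes (adjusted p = 0.0492). EIF4E3, another cap-binding relative of eIF4E, averaged 5.34 ± 1.63 TPM in RRN3 siRNA libraries and 4.98 ± 0.0860 TPM in control siRNA libraries (limma adjusted p = 0.867). EIF4ENIF1, a binding partner of eIF4E in mRNA decay, averaged 11.4 ± 1.17 and 14.1 ± 2.66 TPM (limma adjusted p = 0.238). EIF5A, which carries the modified residue hypusine and acts mainly in elongation, was the most abundant member in both groups. It had 1332, 1442 and 1568 TPM in RRN3 siRNA libraries, against 1407, 1536 and 1564 TPM in control siRNA libraries (limma adjusted p = 0.673). EIF5AL1, a near-identical copy that can share its reads, averaged 16.8 ± 0.669 and 17.7 ± 1.45 TPM in RRN3 siRNA and control siRNA libraries (limma adjusted p = 0.674). EIF5A2, the second eIF5A gene, had 8.82, 6.78 and 3.52 TPM in RRN3 siRNA libraries, against 9.77, 13.0 and 8.40 TPM in control siRNA libraries (log2 change -0.68, SE 0.29, limma adjusted p = 0.119). It passed downward without RRN3 siRNA replicate 1 (adjusted p = 0.0132), on leaving out both libraries numbered 1 (adjusted p = 0.00135) and after correction for GC content (adjusted p = 0.0439). Without RRN3 siRNA replicate 3 its log2 change was -0.36 (limma adjusted p = 0.255).

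A scale factor shared by all genes of a library cancels in the ratio of related factors. Effects that differ with GC content need not cancel. The ratios of 8 pairs were compared by exact permutation of the libraries (two-sided), which cannot give a p below 0.1 with 3 against 3. The level of EIF4A3 was 18.7%, 19.98% and 19.1% of that of EIF4A1 in RRN3 siRNA libraries, against 30.7%, 30.3% and 30.6% in control siRNA libraries. The difference of the log2 ratio was -0.66, many times the spread within either group (SD 0.0481 and 0.0112), with an exact p of 0.1. The level of EIF4E2 was 198%, 267% and 314% of that of EIF4E in RRN3 siRNA libraries, against 414%, 397% and 458% in control siRNA libraries, a difference of -0.73 in the log2 ratio (exact permutation p = 0.1). These were the 2 pairs whose groups did not overlap, and each holds a gene that fell. Transcript GC content was 51.2% for EIF4A3 and 49.6% for EIF4A1, but 46.9% for EIF4E2 and 39.0% for EIF4E. In RRN3 siRNA replicate 1, EIF4E deviated from its group mean by 0.38 on the log2 scale and EIF4E2 by 0.03. The part of this deviation in the EIF4E2 to EIF4E ratio was not tested. EIF1B against EIF1 differed by -0.20 (exact permutation p = 0.2), EIF4A2 against EIF4A1 by -0.36 (exact permutation p = 0.4) and EIF5A2 against EIF5A by -0.72 (exact permutation p = 0.2). With 1 library left out, the difference of EIF4A2 against EIF4A1 ranged from -0.60 to -0.15 and that of EIF5A2 against EIF5A from -1.07 to -0.29. EIF4E3 against EIF4E, EIF4G3 against EIF4G1 and EIF4G2 against EIF4G1 differed by -0.09, 0.19 and 0.00, with exact permutation p of 0.5, 0.6 and 1. With 8 pairs none can pass an adjusted threshold.

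**Figure D3:**
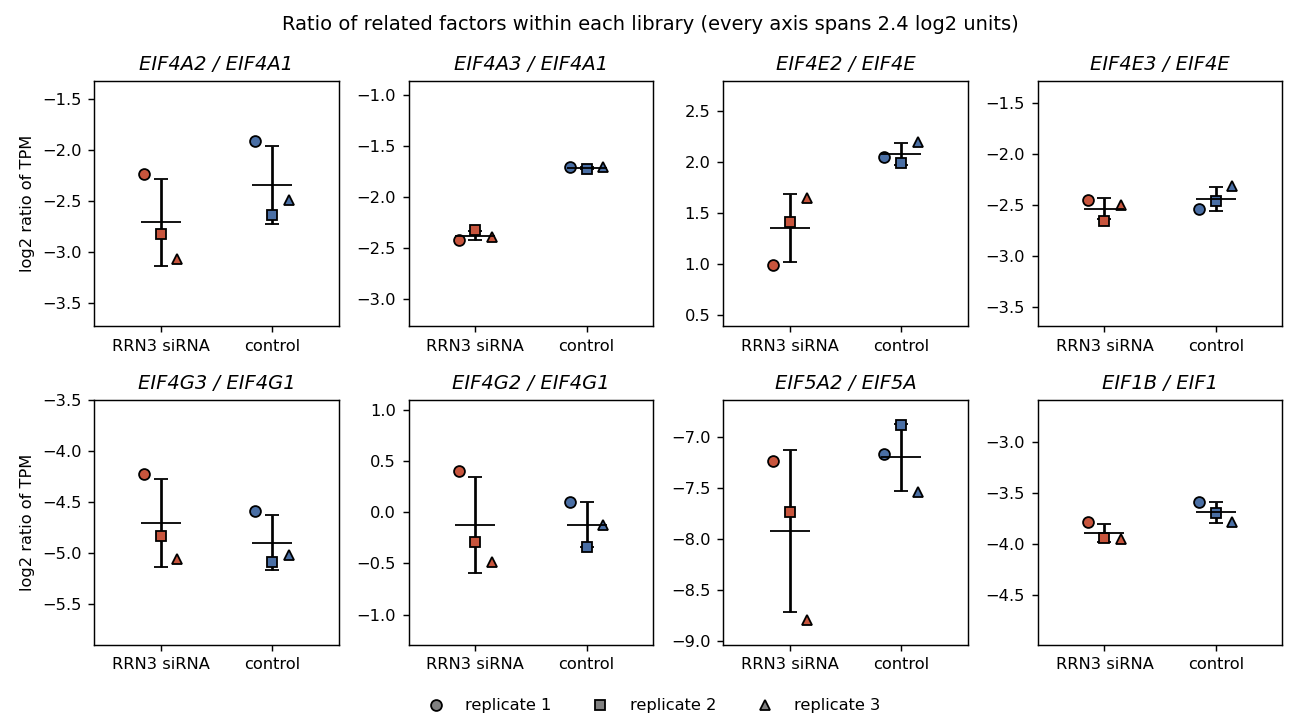
The log2 ratio of TPM of 2 related factors is plotted for each library, with the group mean and SD (n = 3), RRN3 siRNA at the left of control siRNA. The groups are apart for EIF4A3 over EIF4A1 (difference -0.66) and EIF4E2 over EIF4E (difference -0.73) and overlap in the other panels.

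The libraries numbered 1 were the highest of their group for many members, at about the share seen over all genes. For 22 of the 45 genes tested (48.9%), replicate 1 was the highest library of both groups, beside 45.1% of all genes tested, and for 5 it was the lowest of both. The 22 had a median transcript GC content of 43.1%, and the other 23 one of 51.2%. Across the 45 genes the mean deviation of the libraries numbered 1 fell with GC content (Pearson r = -0.60, Spearman rho = -0.60). Across all tested genes the same values were -0.57 and -0.65. The points share their libraries, so these correlations only describe them. EIF4A2, EIF3A and EIF5 deviated most, by 0.53, 0.51 and 0.44 on the log2 scale, and of the 8 genes that changed EIF1B and EIF3B were among the 22. Without both libraries numbered 1 the log2 change was -0.21 for EIF3A and -0.28 for EIF5, and after correction for GC content it was -0.02 and -0.10. Neither gene passed in these fits (limma adjusted p = 0.238 and 0.0847 without the libraries, 0.906 and 0.437 after correction).

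**Figure D4:**
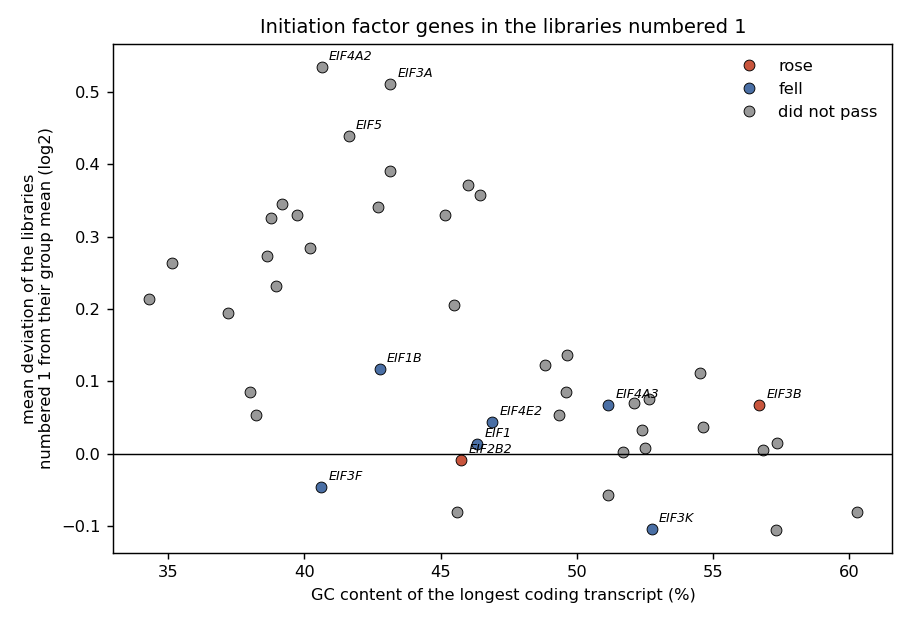
For each of the 45 initiation factor genes tested, the mean log2 deviation of the 2 libraries numbered 1 from their group means is plotted against the GC content of the longest coding transcript in percent. Genes of low GC content lie high (Pearson r = -0.60), with EIF4A2 at 0.53, and the genes that rose or fell lie between -0.10 and 0.12.

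The 4 eIF2 kinases, which halt general initiation under stress by phosphorylating EIF2S1, did not pass. EIF2AK4, also called GCN2, the sensor of uncharged tRNA, had 32.0, 21.5 and 17.3 TPM in RRN3 siRNA libraries, against 19.0, 14.9 and 13.8 TPM in control siRNA libraries (log2 change 0.51, SE 0.22, limma adjusted p = 0.123). The lowest RRN3 siRNA library lay below the highest control siRNA library, which is replicate 1. EIF2AK4 passed upward after median-of-ratios scaling (adjusted p = 0.0122), quantile normalization (adjusted p = 0.0190), correction for GC content (adjusted p = 0.0129), without RRN3 siRNA replicate 3 (adjusted p = 0.0397) and without both libraries numbered 1 (adjusted p = 0.0352). The log2 change of EIF2AK4 was 0.28 without RRN3 siRNA replicate 1 (limma adjusted p = 0.213), and the highest adjusted p over the alternatives was 0.298. EIF2AK1, the heme-regulated kinase, averaged 96.9 ± 8.78 TPM in RRN3 siRNA libraries and 109.6 ± 14.5 TPM in control siRNA libraries (limma adjusted p = 0.315). EIF2AK2, the kinase PKR that senses double-stranded RNA, averaged 6.08 ± 2.64 and 7.60 ± 1.65 TPM (limma adjusted p = 0.419), and passed downward without RRN3 siRNA replicate 1 (adjusted p = 0.0434), while without RRN3 siRNA replicate 3 its log2 change was -0.07 (limma adjusted p = 0.861). EIF2AK3, the endoplasmic reticulum kinase PERK, averaged 2.02 ± 1.21 and 2.19 ± 0.848 TPM in RRN3 siRNA and control siRNA libraries (limma adjusted p = 0.826). Of 9 genes for eIF2 phosphatase subunits and regulators of the kinases, among them PPP1R15A, 0 passed in limma and 1, PPP1CA, a catalytic phosphatase subunit, had an unadjusted p under 0.05. Among all 12157 genes tested in limma, 3679 (30.3%) changed and 5002 had an unadjusted p under 0.05.

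Among genes that control eIF4E and the poly(A) end, 4 rose, 1 fell and 7 of the 12 tested did not pass. The share that changed was 41.7%, where 11.2% of all genes tested rose, 19.0% fell and 30.3% changed. EIF4EBP1, the repressor that binds eIF4E until mTORC1 phosphorylates it, had 101, 101 and 107 TPM in RRN3 siRNA libraries, against 141, 169 and 163 TPM in control siRNA libraries. It fell by 0.61 on the log2 scale (SE 0.09, limma adjusted p = 0.00167). The call held under all 19 alternatives, with log2 changes of -0.69 to -0.41 and adjusted p of at most 0.0184. EIF4EBP2 had 38.5, 30.2 and 26.4 TPM in RRN3 siRNA libraries, against 28.7, 27.1 and 21.9 TPM in control siRNA libraries, with limma adjusted p = 0.245. It passed upward after median-of-ratios scaling (adjusted p = 0.0398), quantile normalization (adjusted p = 0.0489) and correction for GC content (adjusted p = 0.0291). EIF4EBP3 had less than 1.2 TPM in every library and was not tested. PDCD4, an inhibitor of the eIF4A helicase, rose, with 39.7, 31.6 and 24.3 TPM in RRN3 siRNA libraries, against 14.1, 15.7 and 14.6 TPM in control siRNA libraries (log2 change 1.03, SE 0.17, limma adjusted p = 0.00317). CYFIP1, an eIF4E-binding protein, rose to 109 ± 5.12 TPM in RRN3 siRNA libraries, against 76.8 ± 10.4 TPM in control siRNA libraries (limma adjusted p = 0.0108). The eIF4E kinases MKNK2 and MKNK1 rose, at 213 ± 4.58 and 37.2 ± 3.20 TPM in RRN3 siRNA libraries and 174 ± 7.22 and 28.6 ± 2.13 TPM in control siRNA libraries (limma adjusted p = 0.0140 and 0.0326). The MKNK2 call ended without RRN3 siRNA replicate 2 or 3 (adjusted p = 0.0620 and 0.0543) and in eBayes with no intensity trend (adjusted p = 0.0580). The MKNK1 call ended with RRN3 siRNA replicate 1 or 2 or control siRNA replicate 1 or 3 left out (adjusted p = 0.0678, 0.134, 0.0678 and 0.0992), on leaving out both libraries numbered 1 (adjusted p = 0.0535), or where eBayes had no intensity trend (adjusted p = 0.0514).

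A list of mTORC1 pathway genes held parts of the complex, its regulators and the S6 kinases downstream of it. These genes ranged more widely in log2 change than the initiation factors, from -1.67 to 2.41 against -0.72 to 0.55. Of 14 tested, 2 rose, 3 fell and 9 did not pass, so that 35.7% changed, near the 30.3% of all genes tested. The sestrin genes SESN1 and SESN2, p53 targets that restrain mTORC1, rose to 27.4 ± 8.99 and 38.6 ± 1.99 TPM in RRN3 siRNA libraries, against 4.19 ± 0.548 and 13.1 ± 1.04 TPM in control siRNA libraries (limma adjusted p = 0.000221 and 6.73e-05). The third sestrin gene, SESN3, was below the mean of 1 TPM and not tested, with 0.740, 0.455 and 0.737 TPM in RRN3 siRNA libraries, against 1.28, 0.909 and 1.26 TPM in control siRNA libraries, lower without overlap. MLST8, a subunit of both mTOR complexes, fell to 13.8 ± 1.501 TPM, against 45.9 ± 5.29 TPM in control siRNA libraries (log2 change -1.67, SE 0.12, limma adjusted p = 8.83e-05). RPS6KB2, a kinase downstream of mTORC1, and TBC1D7, a subunit of the TSC complex, fell to 37.9 ± 0.630 and 15.7 ± 2.80 TPM, against 56.8 ± 4.47 and 24.4 ± 1.96 TPM in control siRNA libraries (limma adjusted p = 0.00245 and 0.0137). The TBC1D7 call ended without RRN3 siRNA replicate 2 or control siRNA replicate 2 (adjusted p = 0.0648 and 0.0615). MTOR and RPTOR themselves had log2 changes of -0.11 and -0.12 and did not pass.

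Of 11 elongation genes tested, 0 rose, 3 fell and 8 did not pass, so that 27.3% changed, near the 30.3% of all genes tested. EEF1D, an exchange factor of eEF1A, had 415, 410.5 and 422 TPM in RRN3 siRNA libraries, against 763, 822 and 834 TPM in control siRNA libraries (log2 change -0.95, SE 0.07, limma adjusted p = 6.59e-05). EEF2, the translocase, fell to 1228 ± 30.9 TPM, against 2138 ± 214 TPM in control siRNA libraries (limma adjusted p = 0.000472). DHPS, which makes the first step of hypusine on EIF5A, fell to 55.1 ± 4.81 TPM, against 84.2 ± 5.58 TPM in control siRNA libraries (limma adjusted p = 0.00245). Of 3 termination genes tested 0 passed, and 0 had an unadjusted p under 0.05. Of 10 further helpers of initiation and ribosome recycling, 1 (10%) rose, where 11.2% of all genes tested rose and 30.3% changed. The gene was EIF6, which keeps the large subunit apart until initiation. EIF6 averaged 369 ± 37.4 TPM in RRN3 siRNA libraries and 251 ± 18.2 TPM in control siRNA libraries (limma adjusted p = 0.00386). Of 14 mRNAs with a 5′ terminal oligopyrimidine tract from genes not named RPL or RPS, 4 (28.6%) fell and 10 did not pass. Over all genes tested 19.0% fell and 30.3% changed. RACK1, which the rescaling counted with the ribosomal protein genes, was among the 14 and did not pass. The initiation factors in that list were EIF3F, which fell, and EIF3E, EIF3H and EIF4B, which did not pass. The 3 others that fell were EEF1D and EEF2, both counted above among the elongation genes, and HNRNPA1, a splicing regulator, at 643 ± 178 TPM in RRN3 siRNA libraries and 1231 ± 188 TPM in control siRNA libraries (limma adjusted p = 0.00710). The median log2 change of this list was -0.17, beside -0.05 over all genes tested.

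**Figure D5:**
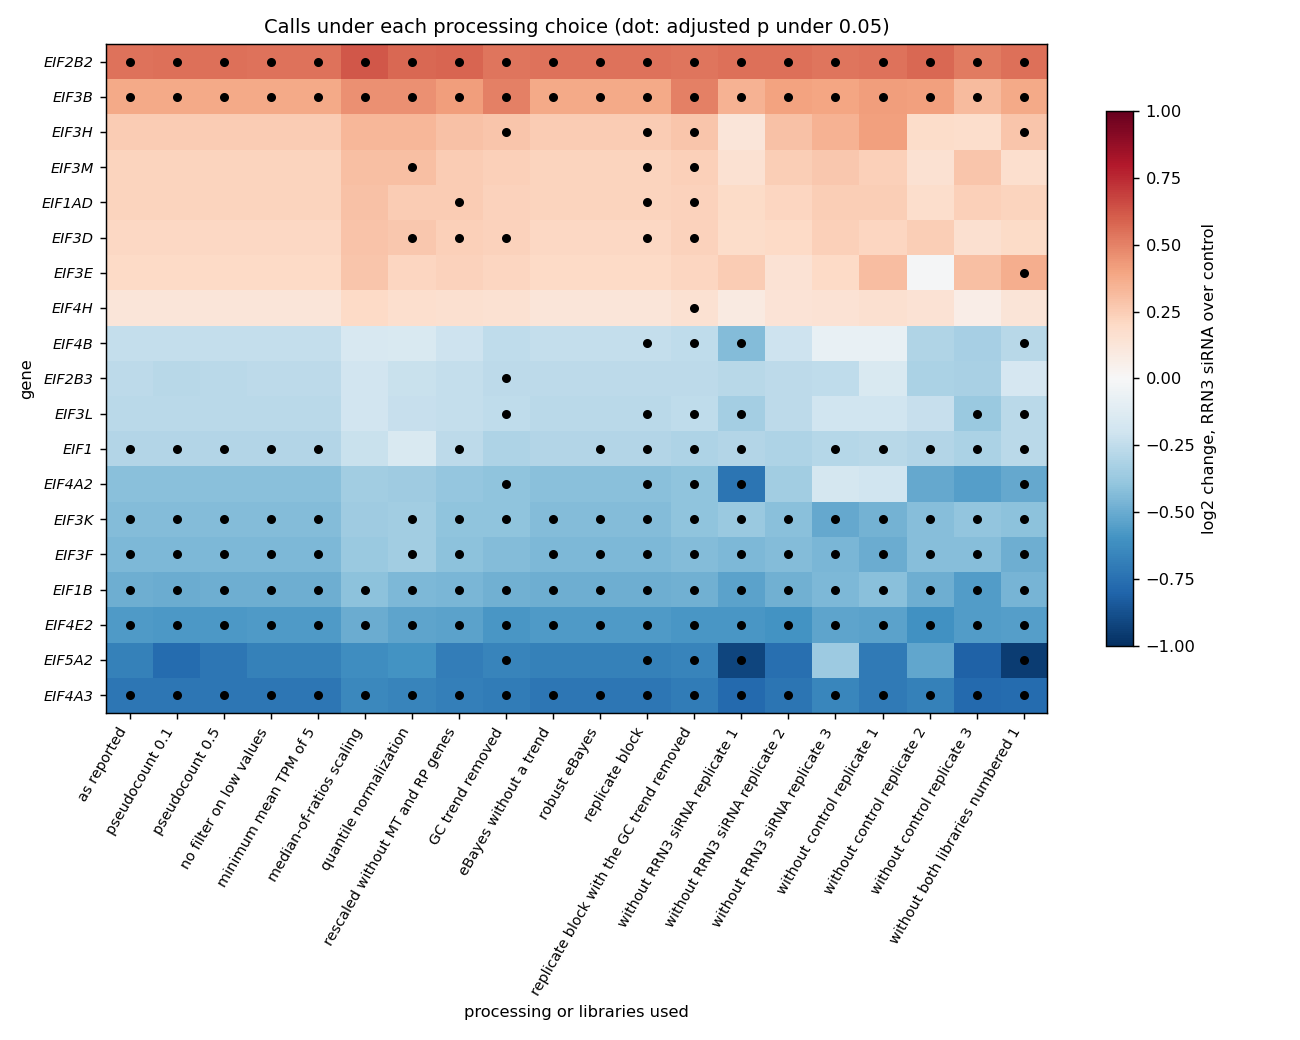
The log2 change (colour, RRN3 siRNA over control siRNA) is shown for the 19 initiation factor genes called under at least 1 way of processing, each column being 1 way or 1 choice of libraries, with a dot where the adjusted p is under 0.05. EIF2B2, EIF3B, EIF1B, EIF4E2 and EIF4A3 carry a dot in every column.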

How the data were processed

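The authors deposited 1 TPM value per gene symbol and library. STAR, Salmon and GRCh38 appear in the submitters' processing notes with no role or version, and annotation and filters are not stated there. Per the labels, poly(A) RNA was the molecule, Ribo-Zero removed ribosomal RNA and random hexamers primed cDNA. TPM keeps no depth, so no counting interval was computed. Groups and replicate numbers came from the sample titles.

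The 12157 genes averaging 1 TPM or more were put on the log2(TPM + 1) scale, which understates changes of low genes, and fitted in limma 3.58.1 (R 4.3.3; group alone, eBayes with an intensity trend). P-values measure only the spread between these libraries. The fit was tested on simulated data. Locations and GC content (12144 of 12157 genes) came from GENCODE 29, promoter windows from RefSeq, and the GC correction was a loess curve (span 0.3) fitted to each library. Exact tests used scipy 1.17.1 and plots matplotlib 3.10.9. Alternatives changed the pseudocount, filter, scaling, variance trend, GC correction, replicate block and libraries used. Calls that genes gained with a replicate block are counted below but are not listed gene by gene.

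Every member was named, with the value in each library for those past the threshold and those set beside them, and up to 6 genes past the threshold from each related list. The members and lists were chosen with earlier results of these data known. Values of EIF1AY are not reported here.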

Additional observations from a re-analysis of the deposited data

How the results depend on the processing

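Across the 19 alternatives, the changed genes among all tested numbered 3679 as reported, 5546 with a replicate block, 6110 with the block and the GC trend removed, and 2240 to 4254 with 1 library left out (2240 without RRN3 siRNA replicate 2). RRN3 passed in each. The initiation factor genes that rose numbered 2 as reported and 4 with quantile normalization, rescaling without mitochondrial and ribosomal protein genes, the GC trend removed, or without both libraries numbered 1. With the replicate block 6 rose, and 7 with the block and the GC trend removed. With 1 library left out 2 rose in each case. The members that fell numbered 6 as reported, 3 after median-of-ratios scaling, 10 with the replicate block with or without the GC trend removed, 10 without both libraries numbered 1, and 5 to 10 with 1 library left out. The replicate numbers were not taken as pairing the libraries. The deviations of same-numbered libraries correlated at 0.419, 0.095 and 0.159, and RRN3 siRNA replicates 2 and 3 correlated more with control siRNA replicates 3 and 2 (0.110 and 0.194) than with their own numbers. Among 65 named genes, 19 of 1234 refits ended a call and 52 made one. With 1 library left out, the difference in the EIF4G3 to EIF4G1 log2 ratio ranged from -0.051 to 0.37 and that of EIF4G2 to EIF4G1 from -0.27 to 0.18, and no other pair changed sign. The unknown depth limits statements on genes near 1 TPM.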

Other observations

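Of the 39 rows with a pseudogene-like name that the symbol rule left out, 4 averaged at least 1 TPM and 0 passed the test (limma, 0 with an unadjusted p under 0.05), and the highest value of any was 6.66 TPM. Among all genes tested 30.3% changed. EIF3FP3, a pseudogene of EIF3F, had 3.81, 4.07 and 3.33 TPM in RRN3 siRNA libraries, against 6.66, 5.42 and 4.12 TPM in control siRNA libraries (log2 change -0.42, SE 0.18, limma adjusted p = 0.126). EIF3FP3 and EIF3F were both lower in every RRN3 siRNA library than in any control siRNA library. Reads can be shared between them, and EIF3F had at least 211 TPM in every library. EIF4A1P10, EIF4BP6 and EIF4HP1 had log2 changes of -0.15, -0.24 and -0.11.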
